A study of Rattus norvegicus with 30 samples.

Results

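Aquaporins are the water channels of cell membranes, and the vasopressin V2 receptor is the receptor through which the antidiuretic hormone acts on the collecting duct. The genes described are *Aqp1*, *Aqp2*, *Aqp3*, *Aqp4*, *Aqp5*, *Aqp6*, *Aqp7*, *Aqp11* and *Avpr2*, the gene of the V2 receptor, which are 9 of the 32545 genes of the deposited table and were chosen by name. Poly(A) RNA of the right kidney of male Sprague-Dawley rats was sequenced, separately for the renal cortex (Cx) and the outer medulla (OM). Rats of the LS groups ate 0.4% NaCl, and rats of the HS14 and HS21 groups ate 4.0% NaCl for 14 or 21 d, with 5 libraries in each of the 6 groups. In each tissue the labels number the libraries 1 to 5 (LS), 6 to 10 (HS14) and 11 to 15 (HS21), and the numbers are used here as replicate names. The labels give no age, and the methods do not state clearly whether the sequenced rats had undergone surgery.

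*Aqp1* carries most of the water reabsorbed in the proximal tubule and the thin descending limb. In principal cells of the collecting duct, vasopressin binds the V2 receptor, cyclic AMP rises, *Aqp2* channels move to the apical membrane and transcription of the *Aqp2* gene rises over hours to days, while *Aqp3* and *Aqp4* form the basolateral exit for water. *Aqp6* lies in vesicles of intercalated cells, *Aqp7* carries water and glycerol in the straight proximal tubule, *Aqp11* lies in the endoplasmic reticulum of proximal tubule cells, and *Aqp5* is best known from glands and lung.

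Levels are CPM (counts scaled to the same library total) after TMM scaling over all 30 libraries and are given as mean ± SD or library by library in the order of the replicate numbers. Differences are log2 ratios ± SE from edgeR. A gene was called raised or lowered where its *P* value, adjusted by Benjamini-Hochberg over all genes tested in that comparison, was under 0.05. The *P* values measure the spread between libraries, which the labels number as separate replicates. In bulk tissue, fewer cells of a type and less RNA per cell cannot be told apart.

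The tissue labels were checked against nephron markers. On LS, 8 of 9 proximal tubule markers were called lower in the OM than in the Cx (median log2 ratio −3.09). In the same comparison 6 of 7 thick ascending limb markers were higher (median 2.14). Of the 14295 genes tested 21.3% were higher and 19.5% lower, with a median of 0.03. The distal convoluted and connecting tubule list (5 markers tested here, 4 within the OM) was left out of this check. So was the thin limb list (3 markers tested here, 2 within the Cx). In each of these lists a marker passed the filter only through the tissue where it is higher. Of the distal list, *Pvalb* was at 0 in every library and *Klk1* was not in the table.

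Several libraries stood apart from the rest of their group. In OM LS replicate 2 the summed proximal tubule markers reached 12152 CPM, against 566 to 5215 CPM in the other OM LS libraries, and the distal markers reached 459 CPM, against 32.6 to 48.2 CPM. Its thin limb sum was 47.5 CPM, against 321 to 614 CPM, and *Slc14a2*, the urea transporter of the collecting duct and thin limb, had no count there, against 90.7 to 524 CPM in the other 4. OM LS replicate 5 lay at the other end, with the lowest proximal tubule sum (566 CPM) and the highest principal cell sum (828 CPM, against 293 to 478 CPM). OM HS21 replicate 11 had the highest intercalated cell sum of its group (2174 CPM, against 996 to 1187 CPM), and OM HS14 replicate 10 had the fewest counts of all (5408126, with 21842843 in the deepest library). In the Cx, HS14 replicate 10 had the highest principal cell sum of its group (935 CPM, against 475 to 588 CPM) and the lowest proximal tubule sum (14003 CPM, against 18809 to 19535 CPM). Values of the members without 1 or more of these libraries are given below for some of the comparisons. For Cx HS14 against LS, leaving out 1 library at a time gave log2 ratios of 0.36 to 0.64 for *Avpr2* and −0.24 to −0.15 for *Aqp1*. They were −0.22 to −0.07 for *Aqp7* and −0.51 to −0.35 for *Aqp11*, and none of these 4 genes was called in such a fit.

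On LS the order of the genes was read from CPM per kb of deposited gene length. In the Cx, *Aqp1* stood first at 580.3 ± 22.1 CPM per kb, and no library of another member reached its lowest value of 553 CPM per kb. *Aqp6* (81.2 ± 2.46 CPM per kb), *Aqp7* (77.9 ± 4.49 CPM per kb) and *Aqp3* (69.4 ± 5.91 CPM per kb) followed, each overlapping its neighbour in this order. *Aqp11* (41.0 ± 5.67 CPM per kb) and *Aqp2* (40.6 ± 5.97 CPM per kb) overlapped each other and no other member. *Avpr2* at 10.5 ± 1.88 CPM per kb, *Aqp4* at 2.29 ± 0.359 CPM per kb and *Aqp5* at 0.776 ± 0.378 CPM per kb came last, without overlap between neighbours. The receptor was thus among the scarcest transcripts of the group, and the basolateral channel *Aqp3* stood above the regulated channel *Aqp2*.

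The order was different on HS in the Cx and in the OM. At HS14 in the Cx, *Aqp2* (72.7 ± 19.4 CPM per kb), *Aqp3* (71.6 ± 8.92 CPM per kb) and *Aqp7* (70.2 ± 13.2 CPM per kb) had close means and overlapped. At HS21 in the Cx, *Aqp2* (87.4 ± 23.2 CPM per kb) had a mean above *Aqp3* (70.6 ± 15.5 CPM per kb), although their ranges overlapped. In the OM on LS, *Aqp1* again stood first at 961 ± 164 CPM per kb without overlap. *Aqp6* (215 ± 105 CPM per kb), *Aqp2* (183.5 ± 109 CPM per kb), *Aqp3* (141 ± 92.1 CPM per kb), *Aqp7* (62.9 ± 44.0 CPM per kb), *Avpr2* (35.7 ± 15.6 CPM per kb), *Aqp4* (25.1 ± 15.5 CPM per kb) and *Aqp11* (20.8 ± 14.2 CPM per kb) each overlapped the next. *Aqp5* was last in the OM at 0.153 ± 0.159 CPM per kb.

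In the Cx after 21 d on HS, *Avpr2*, *Aqp2*, *Aqp4* and *Aqp6* rose 1.69- to 2.15-fold, while *Aqp3* was not called (log2 ratio 0.02). The proximal genes *Aqp1*, *Aqp7* and *Aqp11* fell to between 0.680 and 0.729 of their LS level. Thus 4 of 9 members were raised, where 18.9% of the 14299 genes tested were raised, and 3 of 9 were lowered, where 20.5% of all genes were lowered. The median log2 ratio of the 9 members was 0.76, beside 0.00 for all genes. The HS21 and LS libraries did not overlap for 6 members (*Aqp1*, *Aqp2*, *Aqp4*, *Aqp6*, *Aqp7* and *Avpr2*), as for 26.6% of all genes. DESeq2 called 8 members, 5 raised and 3 lowered, among 3043 raised and 2917 lowered genes of 17325. One edgeR fit over all 30 libraries called 4 members (*Aqp1*, *Aqp2*, *Aqp6* and *Avpr2*) and 2248 genes.

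*Avpr2* encodes the receptor that couples vasopressin to adenylyl cyclase. Its level in the 5 Cx LS libraries was 11.8, 14.97, 18.3, 13.6 and 17.7 CPM. In Cx HS14 it was 20.4, 14.3, 25.4, 18.9 and 30.9 CPM, and in Cx HS21 25.2, 34.6, 26.2, 22.1 and 25.0 CPM. Every HS21 library lay above every LS library, whereas HS14 overlapped both, with replicate 7 among the LS values and replicates 8 and 10 among the HS21 values. The log2 ratio was 0.80 ± 0.14 at HS21 (1.74-fold, edgeR adjusted *P* = 0.00119) and 0.52 ± 0.19 at HS14 (adjusted *P* = 0.185, not called).

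*Aqp2*, the apical channel that vasopressin regulates, had the largest ratio to LS of the 9 members in the Cx, at HS14 and at HS21. The Cx LS libraries held 134, 141, 144, 153 and 191 CPM, those of Cx HS14 229, 174, 352, 282 and 329.7 CPM, and those of Cx HS21 281, 462, 356, 311 and 232 CPM. All HS21 libraries exceeded the highest LS library, and at HS14 only replicate 7 fell within the LS range. The log2 ratio was 1.10 ± 0.16 at HS21 (2.15-fold, edgeR adjusted *P* = 0.000402) and 0.83 ± 0.17 at HS14 (1.78-fold, adjusted *P* = 0.0331). In leave-one-out fits the HS21 call held each time. The HS14 call was lost without Cx LS replicate 1 (edgeR adjusted *P* = 0.0743), 2 (0.0767), 3 (0.0757) or 4 (0.0880) and without Cx HS14 replicate 8 (0.0750) or 9 (0.0708), while the log2 ratio stayed between 0.73 and 0.96. It was also lost in a fit over all 30 libraries (log2 ratio 0.84 ± 0.33, edgeR adjusted *P* = 0.560, in a range of 0.000112 to 0.560 over the 8 other ways of fitting, which include DESeq2 and limma).

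The basolateral channels of the same cells differed from each other. *Aqp3*, which carries water and glycerol, measured 115, 114, 129, 125 and 139 CPM in Cx LS and 119, 161, 132, 135 and 85.0 CPM in Cx HS21, so that HS21 replicate 12 lay above, replicate 15 below and the other 3 inside the LS range. Its log2 ratio was 0.02 ± 0.14 at HS21 (95% interval −0.24 to 0.29, edgeR adjusted *P* = 0.910) and 0.04 ± 0.09 at HS14 (−0.13 to 0.21, adjusted *P* = 0.871). Leaving out Cx LS replicate 1 (−0.01), Cx LS replicate 2 (−0.01) or Cx HS21 replicate 12 (−0.06) turned the sign at HS21, and leaving out Cx HS14 replicate 8 (−0.02) turned it at HS14. *Aqp4*, a water channel that is abundant in brain glia and present in collecting duct principal cells, measured 9.86, 11.8, 11.6, 14.7 and 14.0 CPM in Cx LS and 17.4, 37.0, 25.4, 18.6 and 18.5 CPM in Cx HS21. The lowest HS21 library was above the highest LS library. *Aqp4* was raised at HS21 (log2 ratio 0.91 ± 0.21, edgeR adjusted *P* = 0.00473), but not called in a fit over all 30 libraries (0.92 ± 0.38, adjusted *P* = 0.101, in a range of 8.67e-05 to 0.101 over the 8 other ways of fitting). At HS14 *Aqp4* was 14.1, 12.1, 26.4, 20.3 and 29.4 CPM, with replicates 6 and 7 inside the LS range (log2 ratio 0.72 ± 0.23, edgeR adjusted *P* = 0.121, and 0.0457 without Cx HS14 replicate 7).

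*Aqp6*, the intercalated cell channel that also passes anions, had the tightest Cx LS group, with 122, 122, 131, 124 and 122 CPM. Cx HS14 held 155, 127, 155, 126 and 267 CPM, and Cx HS21 held 230.4, 268, 220.2, 151 and 182 CPM. At HS21 every library was above LS, and at HS14 replicate 10 was far above the other 4. The log2 ratio was 0.76 ± 0.12 at HS21 (1.69-fold, edgeR adjusted *P* = 0.000719) and 0.41 ± 0.18 at HS14 (adjusted *P* = 0.259, not called), and without Cx HS14 replicate 10 the latter was 0.17 (adjusted *P* = 0.235).

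*Aqp5* was the scarcest member, with 0.688, 1.88, 1.16, 0.514 and 1.28 CPM in Cx LS and 2.67, 2.72, 1.52, 1.57 and 1.77 CPM in Cx HS21. Only LS replicate 2 reached into the HS21 range. With 7 to 42 counts a library in these 2 groups, its log2 ratio of 0.89 ± 0.34 was not called (edgeR adjusted *P* = 0.0554), and it was called without Cx LS replicate 2 (log2 ratio 1.15, adjusted *P* = 0.0208) or without Cx HS21 replicate 13 (0.97, adjusted *P* = 0.0491). With all libraries *Aqp5* was called by DESeq2 (adjusted *P* = 0.0462), by edgeR with total-count scaling (0.0313) and by limma on FPKM plus 1 (0.0382) or plus 0.1 (0.0410). At HS14 it was 0.823, 1.02, 1.68, 0.842 and 4.74 CPM, so that replicate 10 alone lay above LS (log2 ratio 0.71 ± 0.54, edgeR adjusted *P* = 0.555, and −0.03 with 0.977 without replicate 10). In the OM *Aqp5* had 9 counts or fewer in each library and was not tested in a within-OM comparison. No count was found in 4 of 5 OM HS14 libraries, where 3 counts would have given 0.182 to 0.535 CPM.

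*Aqp1*, the channel of the proximal tubule, was the most abundant member and fell in the Cx. It measured 1605, 1682, 1635, 1754 and 1738 CPM in Cx LS, 1518, 1689, 1482, 1436 and 1289 CPM in Cx HS14, and 1138, 1143, 1239, 1169 and 1346 CPM in Cx HS21. The HS21 libraries lay below every LS library. HS14 replicate 7 was inside the LS range, replicate 10 inside the HS21 range and the other 3 between. The log2 ratio was −0.48 ± 0.06 at HS21 (edgeR adjusted *P* = 0.000129) and −0.19 ± 0.07 at HS14 (adjusted *P* = 0.173, not called).

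*Aqp7* measured 97.3, 94.2, 95.5, 109 and 97.9 CPM in Cx LS, 78.6, 94.6, 106, 101 and 65.2 CPM in Cx HS14, and 69.0, 54.0, 86.7, 67.3 and 59.1 CPM in Cx HS21. At HS21 all 5 libraries were below LS, whereas at HS14 only replicates 6 and 10 were. The fall was −0.56 ± 0.11 in log2 at HS21 (edgeR adjusted *P* = 0.00186), and the HS14 value of −0.16 ± 0.11 was not called (adjusted *P* = 0.519). *Aqp11* measured 52.2, 56.8, 55.3, 59.5 and 40.7 CPM in Cx LS, 49.3, 40.7, 38.7, 31.9 and 37.9 CPM in Cx HS14, and 40.7, 35.6, 44.7, 37.6 and 34.5 CPM in Cx HS21. LS replicate 5 lay within the HS21 range, and the other 4 LS libraries were above it. *Aqp11* was lowered at HS21 (−0.46 ± 0.11, edgeR adjusted *P* = 0.00518) and had nearly the same value at HS14 (−0.42 ± 0.12, adjusted *P* = 0.0894, not called). In the fit over all 30 libraries neither *Aqp7* (−0.55 ± 0.40, edgeR adjusted *P* = 0.382, in a range of 1.68e-05 to 0.382 over the 8 other ways of fitting) nor *Aqp11* (−0.45 ± 0.37, 0.449, in a range of 0.000467 to 0.449) was called at HS21, with ratios close to those above and larger SE.

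**Figure D1:**
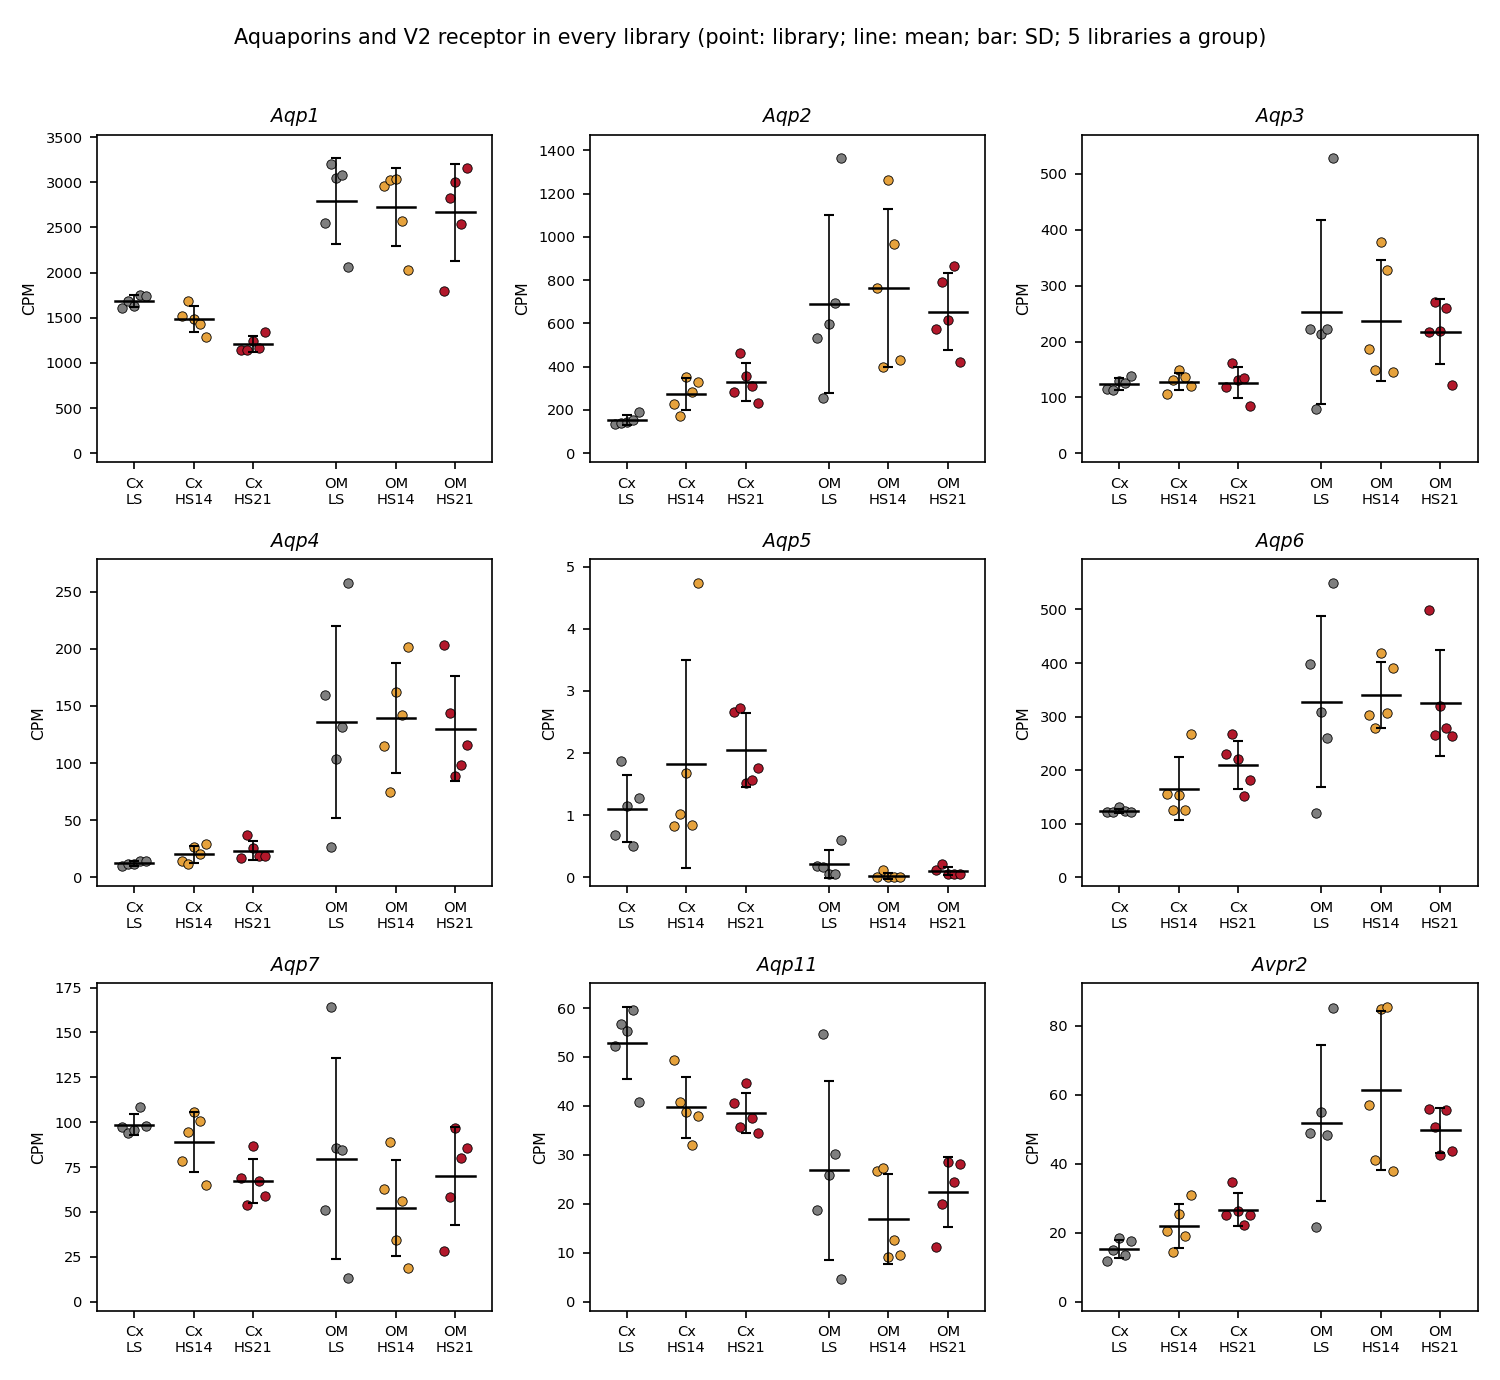
CPM of each member (vertical axes, separate scales) in the 30 libraries, with groups of 5 libraries on the horizontal axes; points are libraries, lines are means and bars are SD. In the Cx the HS21 libraries of *Aqp2* lie between 232 and 462 CPM, above all LS libraries (134 to 191 CPM), and those of *Aqp1* lie between 1138 and 1346 CPM, below all LS libraries.

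**Figure D2:**
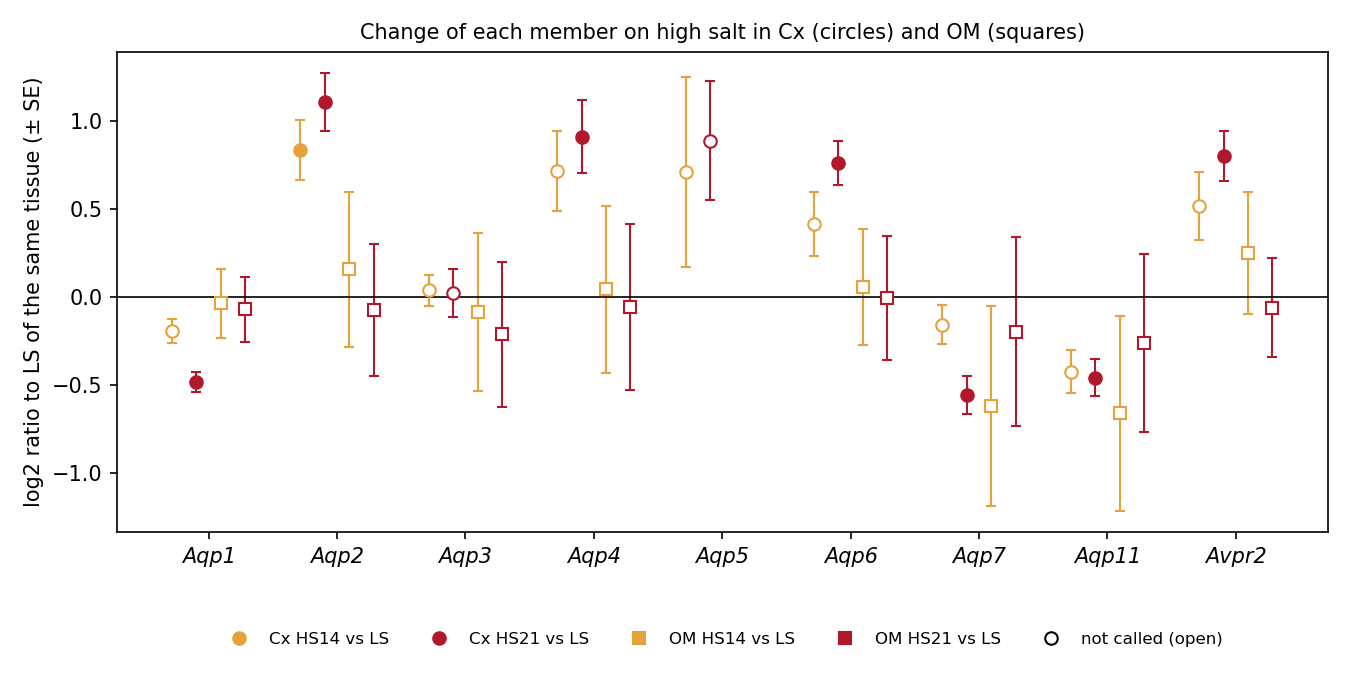
Log2 ratio of each member to LS of the same tissue (vertical axis, bars are SE) for Cx (circles) and OM (squares) at HS14 (orange) and HS21 (red), with filled symbols where edgeR called the gene; *Aqp5* was not tested in the OM. Filled symbols are 7 for Cx HS21 and 1 for Cx HS14, and SE in the OM are 0.18 to 0.57.

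At HS14 in the Cx the only call among the members was *Aqp2*, so that 1 of 9 was raised (1.14% of the 14181 genes tested) and 0 of 9 were lowered by edgeR (1.18% of all genes), while 6 of 9 members and 2462 of 14181 genes had an unadjusted *P* under 0.05. DESeq2 called 3 members at HS14, *Aqp2* and *Aqp4* as raised and *Aqp11* as lowered, among 914 of 16373 genes. The HS14 and HS21 comparisons share the 5 Cx LS libraries. Comparing HS21 with HS14 directly, 1 of 9 members was lowered (9.69% of the 14395 genes tested) and 0 of 9 were raised by edgeR (6.50% of all genes), with 2 members and 4830 genes at an unadjusted *P* under 0.05 and 1 member and 3296 of 15318 genes called by DESeq2. The gene was *Aqp1* (log2 ratio −0.29 ± 0.08, edgeR adjusted *P* = 0.0336). In the same comparison 7 of 9 proximal tubule markers were lowered (median −0.56) and 6 of 8 leukocyte markers raised (median 1.05). *Aqp2* was 0.27 ± 0.21 higher in log2 (edgeR adjusted *P* = 0.401) and *Avpr2* 0.28 ± 0.19 higher (adjusted *P* = 0.329), neither of them called.

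The *Aqp1* call between HS21 and HS14 was lost without Cx HS14 replicate 6 (edgeR adjusted *P* = 0.0684), 7 (0.0824), 8 (0.0747) or 9 (0.0653) and without Cx HS21 replicate 11 (0.0716), 12 (0.0691) or 14 (0.0736). Over the leave-one-out fits its log2 ratio stayed between −0.35 and −0.25. The call was also lost with total-count scaling (log2 ratio −0.17, beside a median of 0.13 for all genes, edgeR adjusted *P* = 0.130) and with no filter (−0.28, adjusted *P* = 0.0663). The fit over all 30 libraries lost it too (−0.32 ± 0.13, adjusted *P* = 0.178, with 0.00553 the lowest over the 8 other ways of fitting). Without Cx HS14 replicate 10, *Aqp6* was called higher at HS21 than at HS14 (log2 ratio 0.58, edgeR adjusted *P* = 0.0216) and *Aqp7* lower (−0.50, adjusted *P* = 0.0226). *Aqp7* was also called without Cx HS21 replicate 13 (−0.51, edgeR adjusted *P* = 0.0275).

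In the OM no member was called on HS. At HS14, 0 of 8 tested members were called by edgeR (0.00694% of the 14417 genes tested, 1 gene), with 0 members and 826 genes at an unadjusted *P* under 0.05 and 0 members and 110 genes by DESeq2. At HS21, 0 of 8 were called by edgeR (0.769% of the 14555 genes tested), again with 0 members, and with 1637 genes, at an unadjusted *P* under 0.05 and 0 members and 721 genes by DESeq2. Between HS21 and HS14, edgeR called 0 of 8 members and 0% of the 14499 genes tested, with 547 genes and 0 members at an unadjusted *P* under 0.05 and 31 genes and 0 members by DESeq2.

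The OM libraries were much more spread than those of the Cx. *Aqp2* measured 535, 257, 599.6, 695 and 1362 CPM in OM LS, 765, 399, 1264, 965 and 433 CPM in OM HS14, and 575, 792, 617, 866 and 421 CPM in OM HS21. The LS group held both the lowest library of the 15, replicate 2, and the highest, replicate 5, and the HS groups lay within that span. The log2 ratio of *Aqp2* to LS was 0.16 ± 0.44 at HS14 (95% interval −0.71 to 1.02) and −0.07 ± 0.37 at HS21 (−0.81 to 0.66, edgeR adjusted *P* = 0.981, in a range of 0.977 to 0.988 over the 8 other ways of fitting). Without OM LS replicates 2 and 5, left out after seeing the data, the HS21 value was 0.09 (edgeR adjusted *P* = 0.912). Without these 2 and OM HS14 replicate 10, the HS14 value was 0.45 (edgeR adjusted *P* = 0.588).

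*Avpr2* in the OM followed the same libraries, with 48.9, 21.7, 55.0, 48.2 and 85.2 CPM in OM LS, 57.1, 41.0, 84.7, 85.5 and 37.8 CPM in OM HS14, and 55.8, 50.6, 42.4, 55.7 and 43.6 CPM in OM HS21. LS replicate 2 was lowest and LS replicate 5 among the highest, and HS21 was the narrowest group. Its log2 ratio was 0.25 ± 0.35 at HS14 and −0.06 ± 0.28 at HS21. *Aqp1* in the OM measured 2555, 3201, 3049, 3076 and 2060.1 CPM on LS and 1797, 2829, 3009, 2541 and 3162 CPM at HS21, with HS21 replicate 11 below every LS library, LS replicate 2 above every HS21 library and a log2 ratio of −0.07 ± 0.18. *Aqp3*, *Aqp4* and *Aqp6* had log2 ratios of −0.21 to 0.06 in the 2 comparisons with LS, with SE of 0.33 to 0.47. *Aqp7* and *Aqp11*, which OM LS replicate 2 held at 164 and 54.7 CPM and replicate 5 at 13.3 and 4.67 CPM, had −0.62 ± 0.57 and −0.66 ± 0.55 at HS14 and −0.20 ± 0.54 and −0.26 ± 0.50 at HS21. Without OM LS replicates 2 and 5, and at HS14 also without OM HS14 replicate 10, the HS14 values were 0.38 for *Avpr2*, −0.02 for *Aqp1*, −0.31 for *Aqp7* and −0.43 for *Aqp11*, and the HS21 values were −0.04, −0.13, −0.10 and −0.17, none of them called. These HS21 values still hold OM HS21 replicate 11. Without that library alone the HS21 values were 0.0421 for *Aqp1*, 0.00258 for *Aqp7* and −0.22 for *Aqp6*, and edgeR called 13 genes in place of 112 and again 0 members.

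Between the tissues on LS, *Aqp1*, *Aqp2*, *Aqp4*, *Aqp6* and *Avpr2* were higher in the OM. Of 8 members tested, 5 were higher, where 21.3% of the 14295 genes tested were higher, and 0 were lower by edgeR, where 19.5% of all genes were lower (6 members and 7015 genes at an unadjusted *P* under 0.05; by DESeq2 6 of these 8 higher, among 3695 higher and 3319 lower genes of 18351). *Aqp4* had the largest log2 ratio of the 8, 3.44 ± 0.48 (10.9-fold), with 159.9, 27.0, 103, 132 and 258 CPM in OM LS against 9.86 to 14.7 CPM in Cx LS. *Aqp2* followed at 2.17 ± 0.36 (4.49-fold), *Avpr2* at 1.75 ± 0.29 (3.37-fold), *Aqp6* at 1.39 ± 0.31 (2.62-fold) and *Aqp1* at 0.72 ± 0.14 (1.65-fold). Their edgeR adjusted *P* values were 0.000305, 0.000898, 0.000963, 0.00498 and 0.00186. The tissues did not overlap for *Aqp1*, *Aqp2*, *Aqp4* and *Avpr2*, as for 29.0% of all genes, and OM LS replicate 2 gave the lowest OM value of *Aqp2*, *Aqp4* and *Avpr2* and an *Aqp6* value (121 CPM) below every Cx LS library, while the other 4 OM libraries were above them.

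The remaining members were not called between the tissues. *Aqp3* measured 222, 79.4, 214, 223 and 528 CPM in OM LS, where replicate 2 lay below every Cx LS library and the other 4 above (log2 ratio 1.01 ± 0.38, edgeR adjusted *P* = 0.0528, and 1.23 with 0.00254 without replicate 2). With replicate 2 kept, *Aqp3* was called by DESeq2 (adjusted *P* = 0.0243) and by edgeR with total-count scaling (0.0246) or in the fit over all 30 libraries (0.0134). *Aqp11* measured 18.8, 54.7, 25.9, 30.2 and 4.67 CPM, with only replicate 2 in the Cx range of 40.7 to 59.5 CPM (−0.98 ± 0.46, edgeR adjusted *P* = 0.115, −1.42 with 0.0140 without replicate 2, and 0.0350 in the fit over all 30 libraries). *Aqp7* measured 51.2, 164, 85.7, 84.3 and 13.3 CPM, of which replicate 2 was above and the other 4 below Cx LS (−0.31 ± 0.47, edgeR adjusted *P* = 0.631). Its log2 ratio ran from −0.77 without replicate 2 to −0.04 without replicate 5 and was called in no fit without 1 library. Without OM LS replicates 2 and 5 together, a choice made after seeing the data, the 8 members tested were all called, 6 higher and 2 lower in the OM, among 3857 higher and 3909 lower genes of 14705. In that fit *Aqp3* had a log2 ratio of 0.81, *Aqp7* of −0.43 and *Aqp11* of −1.09, while *Aqp2* (1.99), *Aqp4* (3.39) and *Avpr2* (1.72) stayed close to their values above. *Aqp5*, with 1 to 9 counts in the OM LS libraries, could pass the filter only through its Cx libraries, and no call of it between the tissues is given.

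Whether the HS21 change differed between tissues was tested as the OM log2 ratio minus the Cx log2 ratio over 20 libraries. With *Aqp5* left aside, edgeR called no member, where 0.665% of the 15194 genes tested were called. An unadjusted *P* under 0.05 was found for 3 members (*Aqp1*, *Aqp2* and *Avpr2*) and 2367 genes. DESeq2 called 0 members and 538 of 14851 genes. The estimates were −1.18 ± 0.43 for *Aqp2* (edgeR adjusted *P* = 0.198), −0.86 ± 0.33 for *Avpr2* (0.223) and 0.41 ± 0.19 for *Aqp1* (0.312). Marker lists had medians of −0.87 (7 principal cell), −0.72 (7 thick ascending limb) and 0.30 (9 proximal tubule), beside −0.06 for all genes. Of these markers edgeR called 1, of the thick ascending limb. Whether the members differed from the lists was not tested. For *Aqp5*, which passed the filter only through the Cx, no estimate is given. Without OM LS replicate 2, *Aqp2* (−1.38, edgeR adjusted *P* = 0.0261) and *Avpr2* (−1.04, adjusted *P* = 0.0156) were called. Without OM LS replicates 2 and 5 together, *Avpr2* was called (−0.83, edgeR adjusted *P* = 0.0284) and *Aqp2* was not (−1.01, adjusted *P* = 0.0533). Without OM HS21 replicate 11, edgeR called 0 members and 185 genes. Over the 9 other ways of fitting, which include DESeq2 and limma, the adjusted *P* ran from 0.113 to 0.310 for *Aqp2* and from 0.157 to 0.356 for *Avpr2*.

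Cell type markers moved with the members in the Cx, where at HS21 18.9% of all genes were raised and 20.5% lowered. At HS21, 7 of 7 principal cell markers were raised (median log2 ratio 0.68), and their summed level was 499.9, 513, 513, 439 and 424 CPM on LS and 878, 1084, 911, 607 and 707 CPM at HS21, with *Hsd11b2* the most abundant. Of 9 intercalated cell markers 8 were raised (median 0.69), with sums of 1094 to 1389 CPM on LS and 1561 to 2574 CPM at HS21 and *Slc4a1* the most abundant. All 9 proximal tubule markers were lowered (median −0.75), from sums of 19287 to 21307 CPM on LS to 11092 to 14735 CPM, with *Slc34a1* the most abundant. The sums of these 3 lists did not overlap between HS21 and LS. This was not particular to them. Thick ascending limb sums were 1861 to 2396 CPM on LS and 2691 to 3577 CPM at HS21. Distal convoluted and connecting tubule sums were 1528 to 2008 CPM and 2334 to 4916 CPM, and thin limb sums 9.50 to 11.7 CPM and 17.8 to 25.9 CPM. All 8 leukocyte markers were raised (median 1.83, with *Cd74* the most abundant), and their sums were 879.9 to 1029 CPM on LS and 1244 to 3438 CPM at HS21. Of the distal convoluted and connecting tubule list 5 of 5 tested markers were raised (median 0.79), of the thin limb list 2 of 2 tested, and of the thick ascending limb list 3 were raised and 1 lowered of 7. Of 7 endothelial markers tested 2 were raised, of 5 straight proximal tubule markers 1 was raised and 2 were lowered, of 3 adipocyte markers tested 1 was raised, and no urothelium marker passed the filter. The part of these lists in the members' changes was not tested.

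The members' size of change was close to that of the markers of their cells in some cases. *Avpr2* stood at 0.0323 ± 0.00680 of the principal cell sum in Cx LS, 0.0369 ± 0.00642 at HS14 and 0.0322 ± 0.00359 at HS21, and *Aqp6* at 0.101 ± 0.00909, 0.105 ± 0.00344 and 0.102 ± 0.00288 of the intercalated cell sum. *Aqp3* stood at 0.263 ± 0.0439 of the principal cell sum on LS, 0.226 ± 0.0601 at HS14 and 0.155 ± 0.0398 at HS21, while *Aqp2* stood at 0.325 ± 0.0772, 0.467 ± 0.126 and 0.396 ± 0.0787. *Aqp1* stood at 0.0833 ± 0.00203 of the proximal tubule sum in Cx LS, 0.0825 ± 0.00659 at HS14 and 0.0993 ± 0.0116 at HS21. These ratios of CPM within a library were chosen after their parts had been seen and were not tested. Ratios of *Avpr2* to the sums of other lists were not computed, so its change is not assigned to principal cells.

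**Figure D3:**
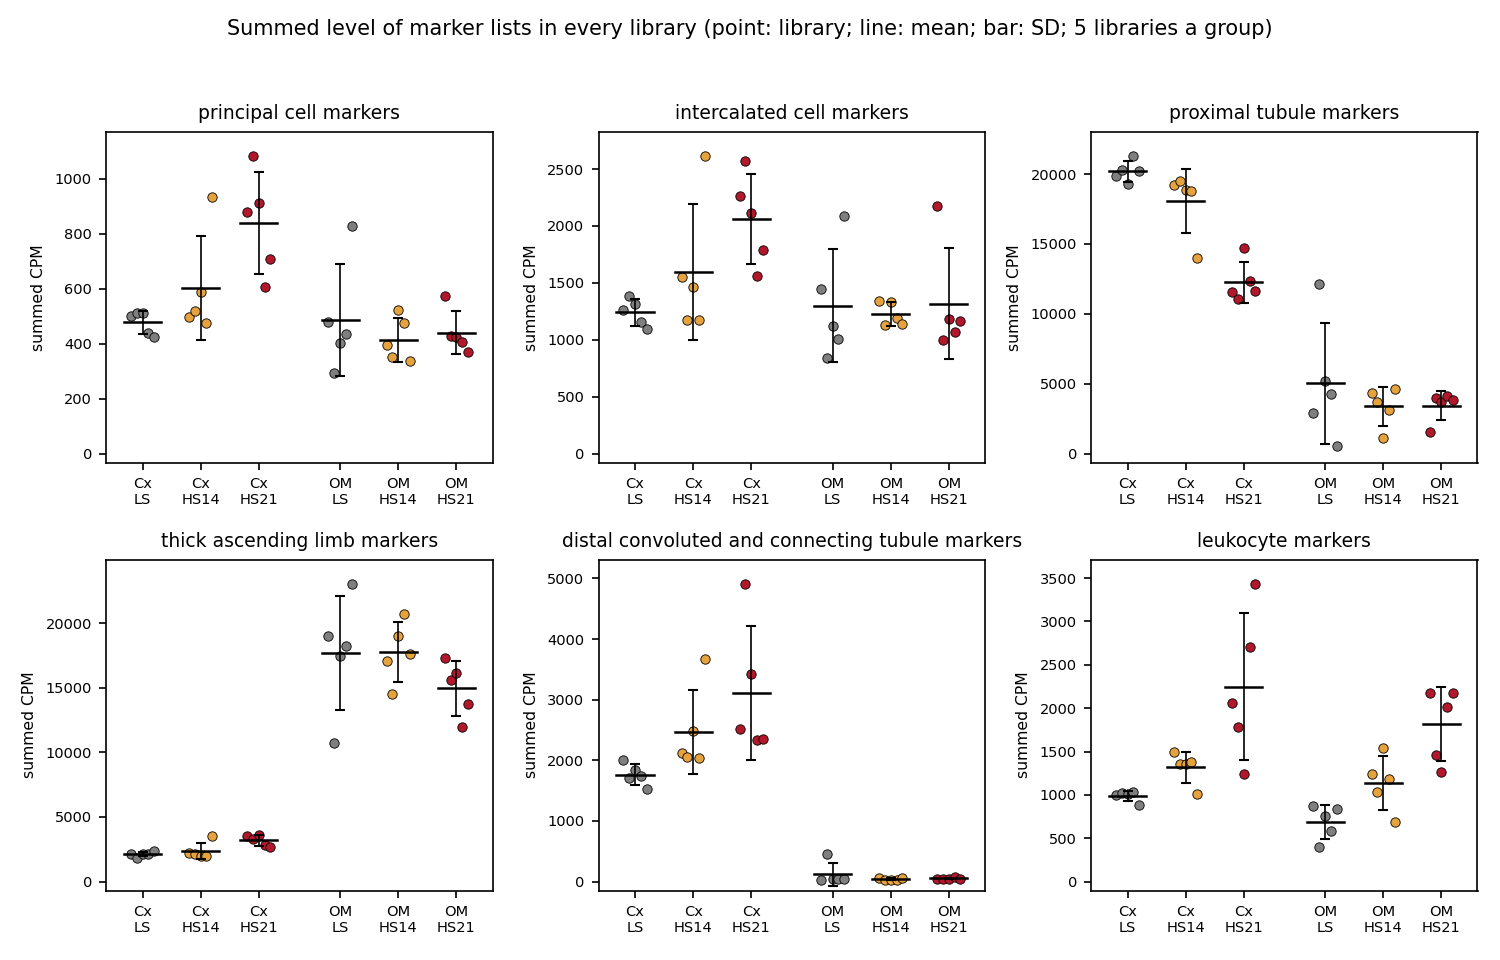
Summed CPM of 6 marker lists (vertical axes, separate scales) in the 30 libraries, with groups of 5 libraries on the horizontal axes; points are libraries, lines are means and bars are SD. In the Cx the proximal tubule sum is 19287 to 21307 CPM on LS and 11092 to 14735 CPM at HS21, and OM LS replicates 2 and 5 mark both ends of their group in the proximal tubule sum.

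The other genes of vasopressin action were read from lists. In Cx HS21 against LS, 6 of 6 tested vasopressin-regulated transporters were raised (median log2 ratio 0.83), among them the epithelial sodium channel subunits *Scnn1b* (0.98 ± 0.13, edgeR adjusted *P* = 0.000223) and *Scnn1g* (0.94 ± 0.14, 0.000341), the thiazide-sensitive cotransporter *Slc12a3* (0.83 ± 0.15, 0.00132) and the potassium channel *Kcnj1* (0.83 ± 0.14, 0.000998). *Slc14a2* and *Slc14a1* were not tested in the Cx. The list shares *Scnn1b* and *Scnn1g* with the principal cell markers and *Slc12a1* and *Kcnj1* with the thick ascending limb markers. It also shares *Slc12a3* with the distal convoluted and connecting tubule markers. Of 8 receptors that modulate vasopressin action 4 were raised and 1 was lowered (median 0.42), with the prostaglandin E2 receptor *Ptger1* at 0.75 ± 0.11 and the alpha-2 adrenoceptors *Adra2a* at 0.70 ± 0.23 and *Adra2b* at −0.61 ± 0.22. *Avpr1a*, the V1a receptor, was raised (0.59 ± 0.20, edgeR adjusted *P* = 0.0364), the oxytocin receptor *Oxtr* was not called (−0.41 ± 0.41), and *Avpr1b* was at 0 in every library.

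In the same comparison 18.9% of all genes were raised and 20.5% lowered. Of 20 genes of cyclic AMP signalling 6 were raised and 6 lowered (median −0.05), with *Prkar2b*, a regulatory subunit of protein kinase A, at 1.02 ± 0.26 and the transcription factor *Creb3l1* at −0.80 ± 0.20. Of 19 genes of *Aqp2* vesicle traffic 6 were raised and 7 lowered (median −0.09), with *Arhgdib* at 1.25 ± 0.22, annexin *Anxa2* at 1.01 ± 0.11 and *Mal*, a raft protein of apical membranes, at 0.78 ± 0.12. The genes named from this list are all among the 6 raised, and none of the 7 lowered is named. Of 8 genes of ubiquitination and turnover 0 were raised by edgeR and 4 lowered (median −0.14), led by the ubiquitin ligase *Itch* (−0.75 ± 0.08) and its relative *Nedd4* (−0.34 ± 0.04). Of 9 tested transcription factors of the *Aqp2* promoter 5 were raised and 1 lowered (median 0.58), with *Cebpb* at 1.32 ± 0.29, *Grhl2* at 0.77 ± 0.18, *Gata2* at 0.73 ± 0.13 and *Elf3* at 0.73 ± 0.16. The promoter list shares *Gata3* with the principal cell markers. The other aquaporins of the list, *Mip*, *Aqp8*, *Aqp9* and *Aqp12a*, were too low to be tested in any comparison, with sums of at most 1.23 CPM in a library.

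At HS14 in the Cx these pathway lists held no call by edgeR, while 6 of 8 leukocyte markers were raised and 2 of 9 proximal tubule markers lowered. Of 4 straight proximal tubule markers tested 1 was raised, as was 1 of 5 tested markers of the distal convoluted and connecting tubule. Of all genes 1.14% were raised and 1.18% lowered. The medians of the principal cell (0.29), intercalated cell (0.35) and vasopressin-regulated transporter lists (0.45) stood above that of all genes (0.00). Replicate 10 was far above the other 4 HS14 libraries in the sums of these 3 lists, with 935 CPM against 475 to 588 CPM (424 to 513 CPM on LS), 2616 CPM against 1175 to 1550.1 CPM (1094 to 1389 CPM on LS) and 3414.5 CPM against 1809 to 2013 CPM (1670 to 1894 CPM on LS). In the OM at HS21, 5 of 8 leukocyte markers were raised (median 1.42), and the pathway lists held no call, where 0.769% of all genes were called. Between the tissues on LS, 1 of 7 principal cell markers was higher in the OM, *Fxyd4* at 2.86 ± 0.42, and the median of the 7 was −0.01, beside the 2.17 of *Aqp2*. Of 9 intercalated cell markers 1 was higher and 4 lower (median −0.36), beside the 1.39 of *Aqp6*. Of 7 tested vasopressin-regulated transporters 3 were higher and 1 lower (median 0.40). Among them *Slc12a1*, the cotransporter of the thick ascending limb, was at 3.96 ± 0.28 and *Slc12a3* at −3.70 ± 1.07. The counts and the median include *Slc14a1*, which was not tested within the Cx and passed the filter only through the OM. No ratio of *Slc14a1* is given. Of 10 factors of the *Aqp2* promoter 5 were higher and 1 lower (median 1.13), the largest ratios being those of *Elf5* (2.69 ± 0.39), *Elf3* (2.14 ± 0.30) and *Grhl2* (2.08 ± 0.26). The cyclic AMP list had 5 higher and 5 lower of 20, the traffic list 6 and 4 of 19, and the ubiquitination list 1 and 4 of 8, beside 21.3% higher and 19.5% lower of all genes. The intercalated list had 9 markers tested here and 8 within the OM, and the promoter list 10 here and 9 within the Cx. The counts of these lists thus include a gene that passed the filter only through 1 tissue.

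Likeness was measured as the Pearson correlation of log2 CPM over the 15 libraries of a tissue, which share diet groups and library composition. Over the Cx libraries the 3 genes most like *Aqp2* among 13345 protein-coding genes were *Aqp4* (0.941), *Kalrn* (0.925) and *Dgcr6* (0.918). Those most like *Avpr2* were *Zfp652* (0.956), *Sostdc1* (0.927) and *Cyp4v3* (0.925), those most like *Aqp1* were *Pdk2* (0.973), *Abca3* (0.966) and *Myo7b* (0.962), and those most like *Aqp11* were *Id4* (0.888), *Hhat* (0.866) and *Tcea3* (0.857). Another member thus headed the list of *Aqp2*. Over the OM libraries *Aqp3* (0.957) and *Avpr2* (0.924) were the 2 genes most like *Aqp2*, followed by *Grem1* (0.922), and the correlation of *Aqp2* with *Aqp3* was 0.401 over the Cx libraries. *Avpr2* was nearest *Armcx3* (0.934), *Aqp11* nearest *Slco1a6* (0.979) and *Aqp1* nearest RGD1562618 (0.912) in the OM.

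Over the Cx libraries *Aqp2*, *Aqp4*, *Aqp6* and *Avpr2* had pairwise correlations of 0.778 to 0.941, and *Aqp1* had −0.827 with *Aqp2*, −0.817 with *Avpr2* and 0.789 with *Aqp7*. *Aqp3* had at most 0.404 with another member there (*Aqp4*) and 0.104 with the principal cell sum. With that sum *Aqp2* had 0.747, *Aqp4* 0.761 and *Avpr2* 0.841. *Aqp6* had 0.981 with the intercalated cell sum, and *Aqp1* 0.923, *Aqp7* 0.915 and *Aqp11* 0.59 with the proximal tubule sum. Over the OM libraries *Aqp7* and *Aqp11* had 0.957 with each other and 0.953 and 0.964 with the straight proximal tubule sum, and *Aqp1* had 0.525 with the proximal tubule sum. There *Aqp3* had 0.862 with the principal cell sum. The libraries of both tissues include those that stood apart.

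In the deposited Rnor_6.0 annotation 3 of the 9 members lie side by side. *Aqp2* (7:141237768-141245165), *Aqp5* (7:141249044-141252578) and *Aqp6* (7:141258584-141261735) follow each other on the plus strand of chromosome 7, with gaps of 3878 and 6005 bases and no other gene between. *Aqp7* (5:57358327-57372239) and *Aqp3* (5:57423734-57429245) are neighbours on the minus strand of chromosome 5, with a U6 small nuclear RNA between. *Aqp1* lies at 4:85551502-85569360, *Aqp4* at 18:6765945-6782996, *Aqp11* at 1:162703442-162713610 and *Avpr2* at X:156889410-156891213 on the minus strand. No other gene of the file overlaps a member. The neighbours on chromosome 7 were raised (*Aqp2*, *Aqp6*) or not called with a positive ratio (*Aqp5*) in Cx HS21, and of the neighbours on chromosome 5 *Aqp7* was lowered and *Aqp3* was not called.

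Promoter sequences were available for 8 of the 9 members, matched by symbol in a RefSeq table of build GRCr8, and not for *Aqp7*. They were searched on both strands for TGACG, a core of the cyclic AMP response element, and GATAA, a form of the core that GATA factors bind. These 2 do not overlap in the windows printed, and other forms were not searched. TGACG occurs in 21.2% and GATAA in 26.5% of all 33469 promoters of 300 bases. Among the members' 9 windows TGACG was found in 1, that of *Aqp2*, and GATAA in 2, those of *Aqp2* and *Avpr2*, while the windows of *Aqp4* and *Aqp6*, which also rose in the Cx, held neither. The windows with a match are shown with the matched letters, all on the opposite strand, in capitals. The *Aqp2* window is chr7:132590036-132590335 on the plus strand, with matches at bases 25 to 29 and 34 to 38, and the *Avpr2* window is chrX:156784889-156785188 on the plus strand, with a match at bases 66 to 70. *Avpr2* is the 1 member of 8 whose window is on another strand than its gene in the deposited Rnor_6.0 annotation, and which of the 2 is right was not tested. A match describes letters and was not tested as a site.
Aqp2: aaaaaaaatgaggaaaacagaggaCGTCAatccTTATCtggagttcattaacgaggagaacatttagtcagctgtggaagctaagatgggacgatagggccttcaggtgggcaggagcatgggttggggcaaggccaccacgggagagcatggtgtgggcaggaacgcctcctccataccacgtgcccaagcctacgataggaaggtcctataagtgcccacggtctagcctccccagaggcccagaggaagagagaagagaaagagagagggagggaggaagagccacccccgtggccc
Avpr2: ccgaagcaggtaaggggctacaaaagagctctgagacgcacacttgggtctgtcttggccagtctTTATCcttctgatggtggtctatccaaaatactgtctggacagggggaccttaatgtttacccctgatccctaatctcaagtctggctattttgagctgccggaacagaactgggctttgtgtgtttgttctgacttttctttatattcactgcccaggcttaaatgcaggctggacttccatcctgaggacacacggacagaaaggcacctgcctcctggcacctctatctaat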

How the data were processed

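The measurements are poly(A) RNA-seq of 30 libraries, grouped by tissue and diet as labelled, with 5 libraries in each of 6 groups and 5408126 to 21842843 counts a library. The authors aligned reads to Rnor_6.0 with HISAT2 2.0.5 and made the deposited counts per gene with featureCounts 1.5.0-p3, and the labels also name StringTie 1.3.3b. The deposited FPKM values were made by the authors from those counts and the gene length, and the deposited gene length is in bases. The deposited table also holds group means, log2 ratios and *P* values of the authors, which were not used here.

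Counts were tested with edgeR 4.0.16 in R 4.3.3 (TMM scaling, default filter on low counts by group, quasi-likelihood F-test, Benjamini-Hochberg over all tested genes, 0.05), with only the compared groups in each fit. CPM used TMM factors over all 30 libraries and, on the log2 scale, a prior count of 2. Exact two-sided permutation tests compared 5 with 5 libraries. Figures were drawn with matplotlib 3.10.9 in Python 3.11.15.

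Each of 8 comparisons was refitted with DESeq2 1.42.0, with its size factors in edgeR, with total-count scaling, with no filter, with CPM of at least 1 in 5 libraries, in one fit over all 30 libraries, with limma 3.58.1 on log2 of FPKM plus 1 or plus 0.1, and without each library in turn (90 fits). The tissue comparison and the interaction were also fitted with the replicate number as a block. Leaving out OM LS replicates 2 and 5 together (with OM HS14 replicate 10 in its comparison) was chosen after seeing the data.

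All 9 members were named in every comparison. From each list at most 4 called genes with the largest absolute log2 ratio and the most abundant gene could be named, and for *Aqp1*, *Aqp2*, *Aqp11* and *Avpr2* the 3 most correlated genes that code for protein and average 1 CPM or more in that tissue. The members and the lists were chosen with earlier results of these data known. The method was tested on simulated data. No library was left out of the main results.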

Additional observations from a re-analysis of the deposited data

Results flagged for a closer look

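Within each group of 5 libraries, a library was singled out where its distance to the nearest other library took up an unusually large share of the whole range of the group. This was examined in 90 groups, found in 16, and chance alone finds about 1 in 20 groups. What lay behind these values was not tested.

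In Cx HS14, replicate 10 stood apart in 7 of them. *Aqp5* was 4.74 CPM (next library 1.68 CPM), *Aqp6* 267 CPM (next 155 CPM), the principal cell markers summed to 935 CPM (next 588 CPM) and the intercalated cell markers to 2616 CPM (next 1550.1 CPM). The thick ascending limb markers summed to 3501 CPM (next 2193 CPM) and the distal convoluted and connecting tubule markers to 3668 CPM (next 2487 CPM), while the proximal tubule markers were low at 14003 CPM (next 18809 CPM).

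In OM HS21, replicate 11 had *Aqp6* at 498 CPM (next 319 CPM), intercalated cell markers at 2174 CPM (next 1187 CPM) and low proximal tubule markers at 1579 CPM (next 3674 CPM). In OM LS, replicate 2 had distal convoluted and connecting tubule markers at 459 CPM (next 48.2 CPM), and replicate 5 had *Aqp5* at 0.609 CPM (next 0.184 CPM). In OM HS14 *Aqp5* was 0.119 CPM in replicate 7 and 0 in the other 4 libraries.

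In Cx LS the distances were small in size. *Aqp6* was 131 CPM in replicate 3 (next 124 CPM), *Aqp7* was 109 CPM in replicate 4 (next 97.9 CPM), and the leukocyte markers were low at 879.9 CPM in replicate 5 (next 994 CPM).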

How the results depend on the processing

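Of 561 values recomputed under the other ways of fitting fixed at the start, 522 kept their sign and their side of the threshold, 7 lost their call, 10 gained one and 22 took the opposite sign, none of which had been called. The cause of the differences was not tested. At Cx HS21, *Aqp1*, *Aqp2*, *Aqp6* and *Avpr2* were called in all 8.

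With DESeq2, Cx HS14 against LS had 3 members and 914 genes called, and the genes called were 110 for OM HS14, 721 for OM HS21, 31 for OM HS21 against HS14 and 538 for the interaction. The log2 ratio of *Aqp6* at OM HS21 was 0.000704 with DESeq2. In one fit over all 30 libraries, 0 members and 18 genes were called at Cx HS14, 4 and 2248 at Cx HS21 and 0 and 550 for Cx HS21 against HS14, and the genes called were 159 for OM HS14, 494 for OM HS21 and 28 for the interaction. With no filter, 0 members were called for Cx HS21 against HS14, 0 genes for OM HS14 and 58 genes for the interaction.

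Total-count scaling shifted the median log2 ratio of all genes to 0.13 at Cx HS21, 0.13 for Cx HS21 against HS14, 0.27 between tissues and −0.16 for the interaction, and single ratios are to be read relative to these. Genes raised and lowered were then 4401 and 1653, 2084 and 644, 5546 and 1842, and 57 and 54. With it 0 members were called for Cx HS21 against HS14, where *Aqp3* was 0.10 and *Aqp11* 0.0804, 0 genes for OM HS14, where *Aqp4* was −0.0452 and *Aqp6* −0.0180, and 44 genes for OM HS21, and *Aqp1* was 0.00956 for OM HS21 against HS14.

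With limma on FPKM plus 1 and plus 0.1, *Aqp3* was −0.00857 and −0.00907 at Cx HS21 and 0.0413 and 0.0430 at OM HS14. At OM HS21 the values were 0.0765 and 0.0779 for *Aqp2*, 0.16 and 0.19 for *Aqp4*, 0.11 and 0.11 for *Aqp6*, 0.0785 and 0.0904 for *Aqp7*, 0.0129 and 0.0422 for *Aqp11*, and 0.0502 and 0.0556 for *Avpr2*. With plus 1, 183 genes were called for the interaction.

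Without OM LS replicates 2 and 5 (and OM HS14 replicate 10 in its comparison), chosen after seeing the data, 0 genes were called for OM HS14, where *Aqp3* was 0.23, *Aqp4* −0.11 and *Aqp6* −0.00225, and 25 genes for OM HS21, where *Aqp2* was 0.0862 and *Aqp6* 0.00351. In that fit 8 members were called between tissues, *Aqp5* left aside as it passed the filter only through the Cx, and 1 member and 722 genes for the interaction.

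Without 1 library at a time, 770 values gave 685 unchanged, 13 calls lost, 10 gained and 62 opposite signs, none of them called before. Members called ran from 0 to 2 at Cx HS14 (85 to 471 genes), 7 to 8 at Cx HS21 (5025 to 5749), 0 to 3 for Cx HS21 against HS14 (1029 to 3524), 5 to 7 between tissues (4932 to 7558; *Aqp5* left aside) and 0 to 2 for the interaction (42 to 1275). Within the OM they stayed at 0, with 0 to 4 genes at HS14, 9 to 175 at HS21 and 0 to 1 for HS21 against HS14. The log2 ratios that changed sign at Cx HS14 ran from −0.016 to 0.10 for *Aqp3* and −0.033 to 0.98 for *Aqp5*. At Cx HS21 they ran from −0.0645 to 0.15 for *Aqp3*. For Cx HS21 against HS14 they ran from −0.12 to 0.098 for *Aqp3*, −0.0325 to 0.35 for *Aqp4*, −0.0184 to 0.91 for *Aqp5* and −0.11 to 0.0483 for *Aqp11*. At OM HS14 they ran from −0.13 to 0.0529 for *Aqp1*, −0.0968 to 0.55 for *Aqp2*, −0.32 to 0.36 for *Aqp3*, −0.22 to 0.40 for *Aqp4* and −0.16 to 0.32 for *Aqp6*. At OM HS21 they ran from −0.16 to 0.0421 for *Aqp1*, −0.28 to 0.31 for *Aqp2*, −0.44 to 0.23 for *Aqp3*, −0.32 to 0.30 for *Aqp4*, −0.22 to 0.25 for *Aqp6*, −0.47 to 0.24 for *Aqp7*, −0.53 to 0.16 for *Aqp11* and −0.25 to 0.18 for *Avpr2*. For OM HS21 against HS14 they ran from −0.11 to 0.0752 for *Aqp1*, −0.39 to 0.0259 for *Aqp2*, −0.25 to 0.10 for *Aqp3*, −0.33 to 0.0844 for *Aqp4* and −0.28 to 0.0178 for *Aqp6*. For the interaction they ran from −0.45 to 0.21 for *Aqp3* and −0.0692 to 0.65 for *Aqp11*.

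The replicate numbers were not used for pairing. In 13 of 15 pairs of Cx and OM libraries with the same number, the Cx library correlated best with its own number after group means were removed. The correlations ran from −0.0709 to 0.439, and 10 were over 0.1. The methods state that kidneys were divided into cortex and outer medulla, so equal numbers may be the same rat. The labels do not say so, and the main fits across tissues treat these libraries as independent. With the number as replicate block, 5 members and 5011 genes were called between tissues, and 0 members and 94 genes for the interaction.

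Depth limits *Aqp5*, which had 9 counts or fewer in every OM library. The *P* values treat the libraries of a group as separate rats, and 5 libraries a group with the spread of the OM leave wide intervals there.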

Other observations

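The ratio of *Aqp2* to *Aqp3* CPM within a library, chosen after the values were seen and not tested, was 1.22 ± 0.0945 in Cx LS (range 1.12 to 1.37), 2.13 ± 0.514 in Cx HS14 (1.33 to 2.73) and 2.59 ± 0.249 in Cx HS21 (2.30 to 2.86). Cx LS and Cx HS21 did not overlap. In the OM it was 2.83 ± 0.350 on LS, 3.21 ± 0.555 at HS14 and 3.03 ± 0.335 at HS21.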
